A study of Mus musculus with 18 samples.

Results

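The nuclear genes for the subunits of respiratory chain complexes I to IV were followed in mouse ovaries. Genes were taken by their symbols: those starting with Ndufa, Ndufb, Ndufc, Ndufs, Ndufv, Uqcr or Cox4 to Cox8, together with Sdha to Sdhd and Cyc1, without the Ndufaf assembly factors and without pseudogenes. Of the 55416 gene identifiers in the deposited tables, 73 matched, and 68 of these reached 10 expected counts in at least 6 libraries. The 5 left out were Ndufa11b, Ndufs6b, Cox7b2, Cox8b and Cox8c, none of which exceeded 6.08 expected counts in any library. The 68 genes comprised 37 of complex I, 4 of complex II, 9 of complex III and 18 of complex IV, where Ndufa4 and its paralogue Ndufa4l2 were counted with complex IV. All 68 also passed the expression filter of the test, so none was lost to low counts.

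The ovaries came from 18 wild-type Balb/c female mice in 3 groups of 6, with 1 library per mouse. The OC+SM mice were 40 weeks old and were dosed orally with the herbal medicine Samul-tang, 2.5 g/kg per dose, 5 doses a week over 4 weeks. The OC mice were 40 weeks old and received distilled water, and the YC mice were 8 weeks old and received distilled water. Both water groups had the same schedule of 5 doses a week over 4 weeks. Mice of all 3 groups were then injected with pregnant mare serum gonadotropin (5 IU), and with human chorionic gonadotropin (hCG, 5 IU) after a further 48 hours. Ovaries were collected 16 hours after hCG, so that every group was in a hormone-induced state and none was unstimulated. Whether each mouse had ovulated is not recorded in the data used here. Per the labels, OC and OC+SM mice were kept apart inside common cages; the sources used here do not give the cage of each mouse. RNA was from whole ovaries, so fewer cells of a type and less RNA per cell cannot be told apart. Oocyte, granulosa, and luteal and steroidogenic markers were detected in every group, although the granulosa marker Amh stayed under 10 expected counts in all libraries.

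The respiratory chain sits in the inner mitochondrial membrane. Complex I takes electrons from NADH and complex II takes them from succinate; both pass them to coenzyme Q, from which complex III moves them through cytochrome c to complex IV, where oxygen is reduced. Most subunits are encoded in the nucleus, while the mitochondrial genome encodes a few central ones, so both genomes supply parts of complexes I, III and IV. In the ovary, luteinizing cells after hCG hold many mitochondria, inside which cholesterol is converted to pregnenolone.

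Levels are given as CPM, counts in each 1000000 of the library after TMM scaling, and comparisons between genes as the authors' deposited TPM, which divides by gene length. On the TPM scale the genes spread widely. Cox6c, a small membrane subunit of complex IV, had 1562.8 ± 141.8 TPM in OC+SM, 1525.4 ± 42.1 TPM in OC and 1431.4 ± 87.5 TPM in YC ovaries (SD, n = 6 each), the highest mean of the 68 in YC ovaries. Cox7c, another small subunit of complex IV, had 1540.0 ± 151.6 TPM in OC+SM, 1567.2 ± 176.1 TPM in OC and 1389.0 ± 151.6 TPM in YC ovaries. These 2 genes differed from each other by less than their SDs in every group. At the low end, Ndufa4l2 had 5.05 ± 1.64 TPM in OC+SM, 6.94 ± 1.17 TPM in OC and 4.36 ± 0.895 TPM in YC ovaries. Among the genes of complex II, the membrane anchor Sdhc had 32.8 ± 2.08 TPM in OC+SM, 30.5 ± 3.35 TPM in OC and 26.3 ± 1.8 TPM in YC ovaries, while the catalytic subunit gene Sdhb had 246.8 ± 25.2, 224.4 ± 9.52 and 180.8 ± 7 TPM in the same order of groups. The kit reads transcript ends, so the division by length raises the TPM of short genes.

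Library totals, in units of 1000000 expected counts, ran from 14.20 to 20.35 in OC+SM ovaries, from 11.61 to 13.43 in OC ovaries and from 9.05 to 14.15 in YC ovaries. OC+SM libraries were deeper than OC libraries (17.24 ± 2.05 against 12.49 ± 0.71 in the same units, SD, n = 6; two-sided exact permutation p = 0.00216, the smallest that 924 regroupings allow), whereas OC and YC totals did not separate (two-sided exact permutation p = 0.965, n = 6). Whether the OC+SM libraries were prepared or sequenced apart from the rest is not given here, and such a batch cannot be told apart from treatment. The libraries with the lowest mean correlation to the others of their own group were YC 3, at 0.964, and OC+SM 6, at 0.963.

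Summed over the 68 genes, the nuclear subunits took 10971 to 11851 CPM in OC+SM ovaries with a median of 11164, 10374 to 11381 CPM in OC ovaries with a median of 10669, and 8369 to 10061 CPM in YC ovaries with a median of 9573. All OC+SM and OC libraries lay above all YC libraries, and OC+SM and OC libraries overlapped. Complex I genes summed to 4796 to 5048 CPM in OC+SM, 4499 to 4957 CPM in OC and 3632 to 4346 CPM in YC ovaries. Complex II genes summed to 520 to 631 CPM in OC+SM, 493 to 549 CPM in OC and 412 to 458 CPM in YC ovaries. For both complexes the OC and OC+SM ranges lay above the YC range. Complex III genes summed to 1606 to 1731 CPM in OC+SM, 1482 to 1608 CPM in OC and 1190 to 1427 CPM in YC ovaries, in the same arrangement. Complex IV genes summed to 3770 to 4442 CPM in OC+SM, 3879 to 4281 CPM in OC and 3128 to 3891 CPM in YC ovaries, so that for this complex the highest YC library reached into both other ranges. That library was YC 1, and the only OC+SM and OC libraries below it were OC+SM 6 (3770 CPM) and OC 6 (3879 CPM). YC 3 gave the lowest YC sum, 8369 CPM, and was the lowest YC library for 50 of the 68 genes.

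**Figure D1:**
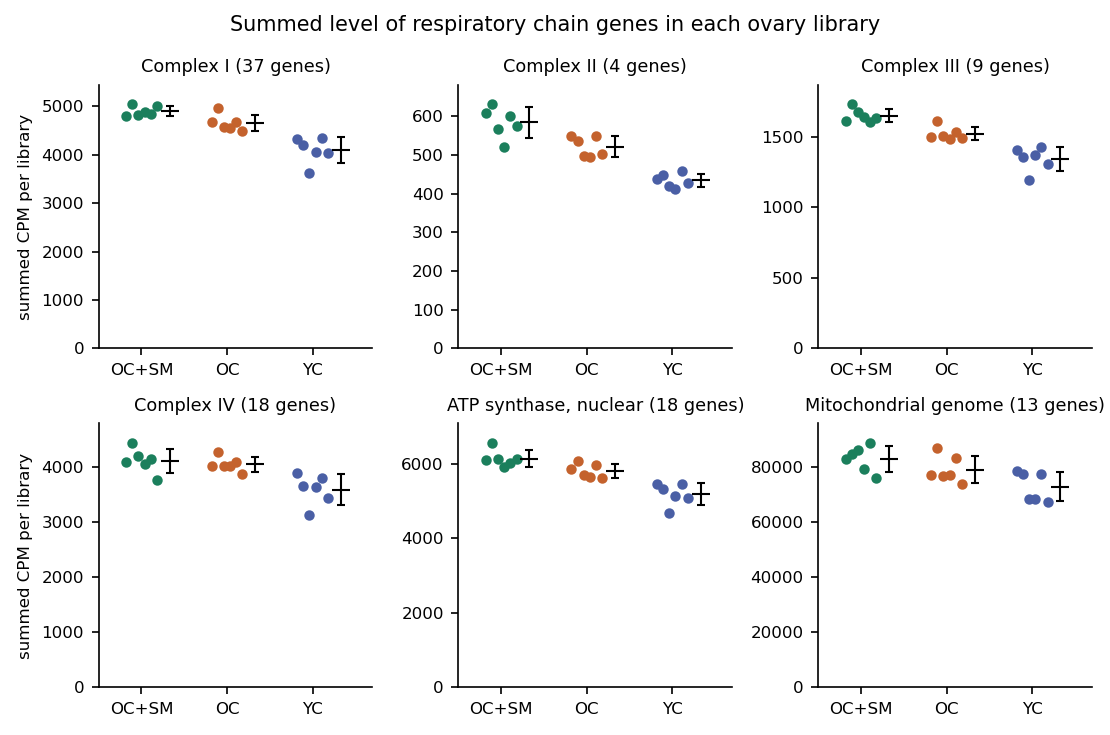
Summed level of the genes of each complex, of the nuclear ATP synthase subunits and of the mitochondrial genome subunits in every library (summed CPM; points are libraries, bars are mean ± SD, n = 6 each). OC and OC+SM libraries lie above the YC libraries in complexes I, II and III, with YC 3 the lowest YC point in complex I at 3632 CPM.

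Aged water-treated ovaries had more transcript of many subunit genes than young ones, by small amounts. In OC against YC, 27 of the 68 genes rose and none fell at an adjusted p under 0.05 (edgeR quasi-likelihood test, Benjamini-Hochberg adjustment over 16959 genes). Over all genes tested, 5.25% were called higher and 6.03% lower. The median log2 fold change of the 68 was 0.17, against 0.01 for all genes, and 67 of 68 values were positive, where 51.2% of all genes had a positive value. For 16 of the 68, all 6 OC libraries lay above all 6 YC libraries, a pattern that 3.21% of all genes showed. Genes that rose came from each complex: 17 of 37 in complex I, 2 of 4 in complex II, 2 of 9 in complex III and 6 of 18 in complex IV, with median log2 fold changes of 0.19, 0.22, 0.17 and 0.15 in that order. Of the complex IV genes, 6 are isoform genes (Cox4i2, Cox6a2, Cox6b2, Cox6c2, Cox7a1 and Ndufa4l2), of which 1 rose. Of the other 12, 5 rose, with a median of 0.18, against 0.06 for the 6. At an unadjusted p under 0.05 the count over the 68 was 51 higher and 0 lower, where 12.3% of all genes were higher and 11.7% lower.

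Complex I has core subunits, which carry out electron transfer and proton pumping, and many accessory subunits around them. Among the core genes Ndufs7, Ndufs3 and Ndufs8 rose. Ndufs7, whose iron-sulfur cluster hands electrons to coenzyme Q, had 54.5, 56.5 and 58.8 CPM as lowest, median and highest OC library, against 40.2, 44.5 and 53.6 CPM in YC ovaries. The groups did not overlap, and the log2 fold change was 0.30 ± 0.07 SE (edgeR adjusted p = 0.00331). Ndufs3, a core subunit of the arm that reaches into the matrix, ranged from 87.1 to 98.5 CPM with a median of 90.5 in OC ovaries, against 74 to 83.5 CPM with a median of 77.1 in YC ovaries. Its groups did not overlap either (log2 fold change 0.23 ± 0.05 SE, edgeR adjusted p = 0.0042), but the call was lost with library totals and with thinning and the length trend removed (adjusted p up to 0.075). Ndufs8, an iron-sulfur subunit, stood at 74.5 to 86.9 CPM (median 83.7) in OC and 56.6 to 78.6 CPM (median 66.5) in YC ovaries, with overlap, and its log2 fold change was 0.29 ± 0.07 SE (edgeR adjusted p = 0.00907).

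The core genes Ndufv1, Ndufv2 and Ndufs1 did not pass. Ndufv1, which binds NADH, had a log2 fold change of 0.16 ± 0.05 SE (edgeR adjusted p = 0.0575), and Ndufv2, its iron-sulfur neighbour, 0.20 ± 0.07 (edgeR adjusted p = 0.0728), although all OC libraries of Ndufv2 (124.7 to 133.1 CPM) lay above all YC libraries (89.7 to 119.4 CPM). Ndufs1, the large iron-sulfur subunit, had 0.07 ± 0.06 (adjusted p = 0.537).

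Of the 30 accessory genes of complex I 14 rose, and all 30 values were positive, from 0.03 for Ndufa7 to 0.39 for Ndufb4c. Ndufb7, an accessory subunit of the membrane arm, had 67.9, 77.9 and 82.1 CPM as lowest, median and highest OC library, against 55.5, 60.9 and 67.8 CPM in YC ovaries. The lowest OC library lay just above the highest YC library, and the log2 fold change was 0.31 ± 0.07 SE, a 1.24-fold level (edgeR adjusted p = 0.00246). Ndufa13, also known as GRIM-19, ranged from 100.8 to 123.8 CPM with a median of 104.2 in OC ovaries, against 76.6 to 96.2 CPM with a median of 88.9 in YC ovaries. It too did not overlap between the groups (log2 fold change 0.30 ± 0.07 SE, edgeR adjusted p = 0.00608). Ndufa2, an accessory subunit of the NADH-oxidizing module, rose by 0.24 ± 0.06 SE without overlap (edgeR adjusted p = 0.00683). Ndufb4c had fractional expected counts in all 18 libraries, so it may share reads with near-identical copies and its value is uncertain. The same holds for Ndufa12, Ndufab1, Ndufb11, Ndufb2, Ndufb4, Ndufc1, Ndufs1, Ndufs5, Cyc1, Uqcrb, Uqcrc2, Cox5a, Cox5b, Cox6c, Cox6c2 and Cox7c. Ndufs3, Ndufb6, Uqcrh and Cox6a1 had fractional counts in 17 libraries and may share reads too.

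In complex II, Sdhb, the iron-sulfur subunit of succinate dehydrogenase, had the smallest p of all 68 genes. Its OC libraries ran from 247.6 to 275.4 CPM with a median of 255.5, against 193.1 to 215.3 CPM with a median of 201.9 in YC ovaries. The gap between the groups was wider than either group's range, and the log2 fold change was 0.35 ± 0.06 SE, a 1.28-fold level (edgeR adjusted p = 4.71e-04). Sdhc, a membrane anchor, rose by 0.26 ± 0.07 SE (edgeR adjusted p = 0.0101), with 88 to 117.4 CPM in OC and 77.2 to 90.9 CPM in YC ovaries; the call was lost with library totals and in both fits on TPM (adjusted p up to 0.091). Sdha, the flavoprotein that oxidizes succinate, did not pass (0.17 ± 0.06, adjusted p = 0.0683). Sdhd, the other anchor, spread so widely that no difference could be read: 28.9 to 55.3 CPM in OC and 23 to 56.5 CPM in YC ovaries, with a log2 fold change of 0.01 ± 0.21 SE (edgeR adjusted p = 0.98).

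In complex III, Uqcrq, a small subunit beside cytochrome b, had 302.2, 313.9 and 328.4 CPM as lowest, median and highest OC library, against 218.3, 257.1 and 282.1 CPM in YC ovaries. All OC libraries were above all YC libraries (log2 fold change 0.31 ± 0.06 SE, edgeR adjusted p = 8.64e-04). Uqcrfs1, the Rieske iron-sulfur protein, rose by 0.29 ± 0.08 SE with overlapping groups, 110.8 to 146.7 CPM in OC and 91.1 to 118.6 CPM in YC ovaries (edgeR adjusted p = 0.0157); it too lost the call with library totals and on TPM (adjusted p up to 0.103). The other 7 genes did not pass. Cyc1, cytochrome c1, had 0.17 ± 0.07 (adjusted p = 0.104), and the core proteins Uqcrc1 and Uqcrc2 had 0.13 ± 0.06 (adjusted p = 0.191) and 0.04 ± 0.06 (adjusted p = 0.735).

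In complex IV, Cox8a, the smallest subunit in its ubiquitous form, had 498.4, 535.5 and 544.6 CPM as lowest, median and highest OC library, against 359.1, 452.7 and 477.7 CPM in YC ovaries. The groups did not overlap, and the YC value of 359.1 CPM was that of YC 3 (log2 fold change 0.26 ± 0.06 SE, edgeR adjusted p = 0.00505). Ndufa4, long taken for a complex I subunit, rose by 0.31 ± 0.08 SE (edgeR adjusted p = 0.0102), with 87 to 105.6 CPM in OC and 60.8 to 89.3 CPM in YC ovaries. Cox5b, which binds zinc on the matrix side, rose by 0.19 ± 0.06 (adjusted p = 0.0261), Cox6b1, which sits where the monomers of the enzyme meet, by 0.20 ± 0.06 (adjusted p = 0.0402), and the small membrane subunit Cox7b by 0.25 ± 0.08 (adjusted p = 0.0478). These 3 were close to the threshold. Cox5b lost its call without any one of OC 2, OC 5, YC 2 and YC 3, Cox6b1 without any one of OC 1 to OC 5, YC 3, YC 4 and YC 6, and Cox7b without any single OC library or any one of YC 3, YC 4, YC 6 and OC+SM 1, 3 and 5. Over all alternatives their adjusted p reached 0.199, 0.184 and 0.159 in that order. Cox4i1, the largest nuclear subunit, did not pass (0.14 ± 0.06, adjusted p = 0.15).

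**Figure D2:**
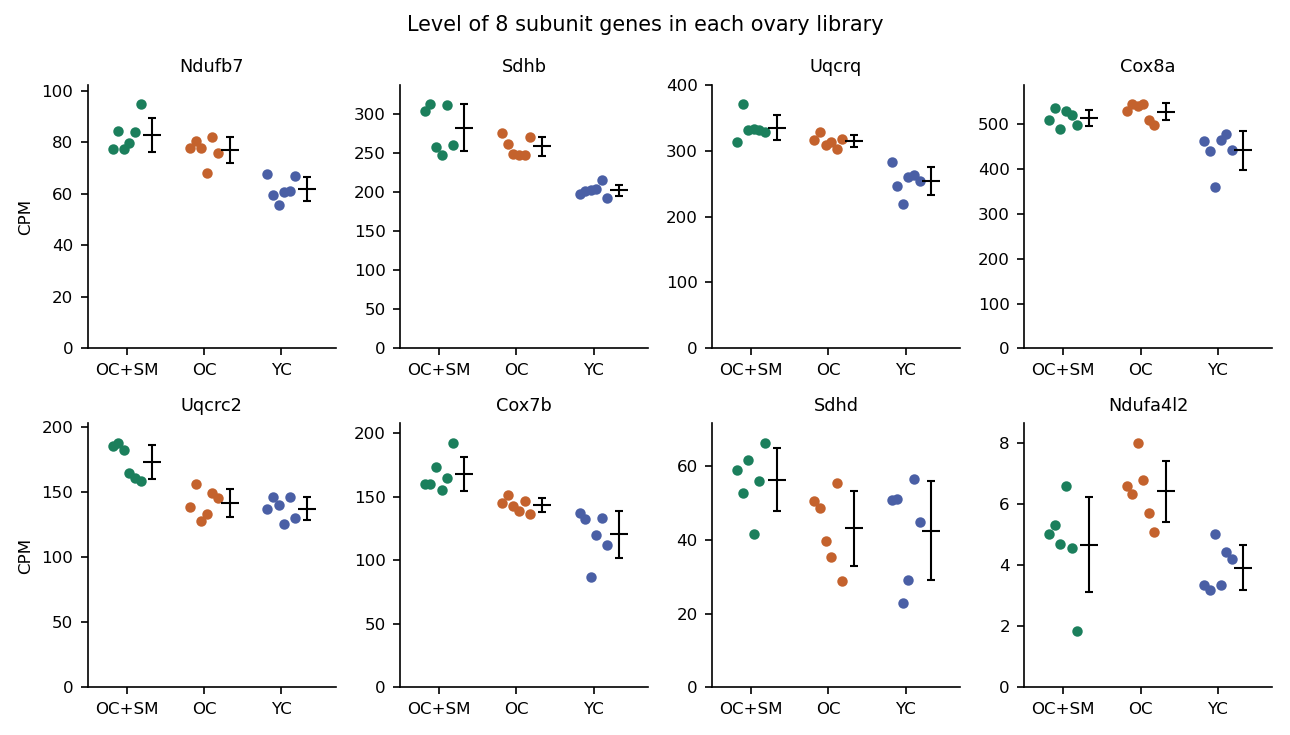
Level of 8 subunit genes in every library (CPM; points are libraries, bars are mean ± SD, n = 6 each). Sdhb, Uqcrq, Ndufb7, Cox8a and Ndufa4l2 do not overlap between OC and YC ovaries, Uqcrc2 and Cox7b do not overlap between OC+SM and OC ovaries, and Sdhd spreads widely in all 3 groups.

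The count for OC against YC depended on scaling, on the values used and on single libraries. It was 10 of 68 with scaling by library totals alone, under which the median of all genes shifted to -0.06. With limma on log2 TPM it was 15 and 14 with a pseudocount of 1 and 0.1. Leaving out 1 library gave 17 without OC 2, the highest OC library for 35 of the 68 genes. It was 19 without YC 6, 20 without any one of OC 1, YC 3 and YC 4, and 29 without YC 5. Without YC 3 the median log2 fold change of the 68 was 0.14, against 0.17 with all libraries. None of the 68 was called lower under any of the 32 alternatives.

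Promoter windows are shown because genes of several complexes moved the same way with age; they describe sequence, not binding. RefSeq windows of 300 bases (GRCm38, 250 before to 50 after the annotated start) were matched by symbol for 52 of the 68 genes, and 5 motifs were searched on both strands. The NRF1 letters, GCGC and TGCGC with any base between them, stood in 21.2% of the 52 windows, against 5.19% of all 27025 gene windows and 10.6% of those of tested genes. The ETS and GABP letters CTTCCGG stood in 21.2%, against 9.93% and 18.7%, and the YY1 letters AAGATGGCG in 9.62%, against 1.64% and 3.26%. The ERR letters AAGGTCA stood in 7.69%, against 5.38% and 4.03%, and the TATA letters TATAAA in 7.69%, against 15.7% and 9.33%. None of these letter strings overlaps another in the windows printed. Of the 21 genes that rose in OC ovaries and had a window, 1 held the NRF1 letters, 7 the ETS and GABP letters and 3 the YY1 letters. Printed here are, for each complex, the gene with a window and the smallest p in OC against YC, and then the gene with the smallest p among those that hold the NRF1 letters. Each sequence runs 5′ to 3′ on the gene's strand, with motif letters in capitals.
Ndufb7: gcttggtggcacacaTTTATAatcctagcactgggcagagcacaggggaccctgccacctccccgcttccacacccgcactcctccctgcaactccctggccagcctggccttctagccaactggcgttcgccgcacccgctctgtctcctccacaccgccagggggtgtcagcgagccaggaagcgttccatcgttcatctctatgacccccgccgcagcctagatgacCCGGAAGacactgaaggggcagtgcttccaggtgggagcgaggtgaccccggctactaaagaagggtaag
Sdhb: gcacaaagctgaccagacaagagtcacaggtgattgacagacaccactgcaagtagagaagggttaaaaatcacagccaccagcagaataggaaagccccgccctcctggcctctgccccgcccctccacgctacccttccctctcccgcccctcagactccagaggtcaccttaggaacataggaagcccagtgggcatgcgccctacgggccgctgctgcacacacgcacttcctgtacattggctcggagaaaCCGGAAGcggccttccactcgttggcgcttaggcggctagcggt
Uqcrfs1: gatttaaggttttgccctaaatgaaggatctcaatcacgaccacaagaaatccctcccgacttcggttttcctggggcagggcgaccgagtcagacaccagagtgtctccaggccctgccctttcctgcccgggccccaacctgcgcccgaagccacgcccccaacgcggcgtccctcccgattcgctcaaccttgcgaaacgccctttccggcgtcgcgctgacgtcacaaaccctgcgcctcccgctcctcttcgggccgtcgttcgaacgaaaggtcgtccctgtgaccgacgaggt
Cox8a: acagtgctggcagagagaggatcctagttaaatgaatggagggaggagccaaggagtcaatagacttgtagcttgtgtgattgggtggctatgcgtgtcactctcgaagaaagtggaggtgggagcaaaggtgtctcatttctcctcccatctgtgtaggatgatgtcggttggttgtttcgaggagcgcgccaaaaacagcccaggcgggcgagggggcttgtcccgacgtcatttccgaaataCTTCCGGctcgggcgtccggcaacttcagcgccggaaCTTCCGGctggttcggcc
Ndufs5: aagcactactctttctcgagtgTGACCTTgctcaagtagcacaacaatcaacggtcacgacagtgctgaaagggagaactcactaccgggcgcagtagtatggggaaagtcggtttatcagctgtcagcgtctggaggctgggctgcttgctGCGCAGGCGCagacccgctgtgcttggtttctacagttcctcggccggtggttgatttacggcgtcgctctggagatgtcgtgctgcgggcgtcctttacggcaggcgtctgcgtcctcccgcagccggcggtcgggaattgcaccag
In Ndufb7, at chr8:83566508-83566807 on the plus strand, CCGGAAG, the reverse complement of the ETS and GABP letters, began at position -20 from the start site, and TTTATA, the reverse complement of the TATA letters, at -235. In Sdhb, at chr4:140961021-140961320 on the plus strand, CCGGAAG began at position 7 after the start. Cox8a, at chr19:7217567-7217866 on the minus strand, held CTTCCGG at -5 and at 33. Ndufs5, a complex I accessory gene at chr4:123718137-123718436 on the minus strand, held the reverse complement of the NRF1 letters (GCGCA and GCGC with any base between them) at -98 and that of the ERR letters at -228. The window of Uqcrfs1, at chr13:30545267-30545566 on the minus strand, held none of the 5 motifs.

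Few of these genes passed the test with Samul-tang, in a comparison that uses the same OC libraries as the one with age. Among the 68 genes 1, Uqcrc2, rose in OC+SM against OC and none fell, where 0.548% of all genes were called higher and 0.489% lower. The median log2 fold change was 0.06, against 0.01 for all genes; 53 of 68 values were positive, against 51.4% of all genes. At an unadjusted p under 0.05 there were 15 higher and 1 lower, where 8.61% of all genes were higher and 8.26% lower. DESeq2 called 6 of the 68 higher and 0 lower, and over all 16959 genes it called 286 higher and 353 lower, against 93 and 83 with edgeR. By complex, the median log2 fold change was 0.06 in complex I, 0.17 in complex II, 0.13 in complex III and 0.01 in complex IV.

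Uqcrc2, a core protein of complex III, had 158.6, 173.5 and 187.9 CPM as lowest, median and highest OC+SM library, against 127.6, 142.4 and 156.1 CPM in OC ovaries. All OC+SM libraries were above all OC libraries, which 0.849% of all genes showed, and the log2 fold change was 0.29 ± 0.06 SE, a 1.22-fold level (edgeR adjusted p = 0.0273). The YC range, 125.4 to 146.5 CPM, overlapped the OC range and lay below the OC+SM range. Without any one of OC+SM 1, 2 and 3 and OC 1, 3 and 4, and when only the 12 OC+SM and OC libraries were fitted, Uqcrc2 was no longer called, with adjusted p up to 0.0791. Its expected counts were fractional in all 18 libraries, so it may share reads with another gene.

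Cox7b was the other gene without overlap, at 155.3, 162.4 and 192.0 CPM as lowest, median and highest OC+SM library, against 136.6, 144.0 and 151.0 CPM in OC ovaries. Its log2 fold change of 0.22 ± 0.08 SE did not pass (edgeR adjusted p = 0.155). Other values near the threshold were those of Ndufb4, a membrane arm subunit (0.32 ± 0.08, adjusted p = 0.0516), Sdha (0.22 ± 0.06, adjusted p = 0.071), Ndufa8, which faces the intermembrane space (0.25 ± 0.07, adjusted p = 0.0779), Ndufs1 (0.21 ± 0.06, adjusted p = 0.0837) and Ndufab1, the mitochondrial acyl carrier protein (0.19 ± 0.06, adjusted p = 0.0872). Several of the genes that stood out with age had values close to 0 here: Cox8a -0.04 ± 0.06, Ndufs3 -0.01 ± 0.05, Ndufa13 -0.06 ± 0.07 and Ndufa4 0.01 ± 0.08. Others had positive values that were not called, such as Ndufs8 (0.17 ± 0.07), Sdhb (0.13 ± 0.06) and Ndufb7 (0.11 ± 0.07). With scaling by library totals alone 11 genes were called higher, and the median of all genes then shifted to 0.08; without YC 3, which enters the shared estimate of spread, 4 were called. It was 3 without OC+SM 4 and 2 without OC+SM 6.

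Against young ovaries, the aged ovaries given Samul-tang had more transcript of most subunit genes. In OC+SM against YC, 54 of the 68 genes rose and none fell, where 11.5% of all genes were called higher and 10.9% lower. The median log2 fold change was 0.26, against 0.00 for all genes, and 66 of 68 values were positive, against 50.3% of all genes. For 37 of 68 genes all OC+SM libraries lay above all YC libraries, a pattern of 4.85% of all genes. The YC libraries also serve in OC against YC and the OC+SM libraries in OC+SM against OC, so its count is no independent evidence. Of complex I 35 of 37 genes rose, as did 3 of 4 genes of complex II, 8 of 9 of complex III and 8 of 18 of complex IV. In complex IV these were 8 of the 12 genes other than the 6 isoform genes, none of which rose. The genes not called were Ndufa1 (0.07 ± 0.07) and Ndufa10 (0.08 ± 0.05) in complex I, Sdhd (0.40 ± 0.21, adjusted p = 0.185) in complex II and Uqcrh (0.13 ± 0.05, adjusted p = 0.073) in complex III, along with 10 genes of complex IV; Ndufa1, Ndufa10 and Uqcrh were named after their values had been seen.

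Sdhb again had the smallest p, with 247.6, 282.5 and 312.8 CPM as lowest, median and highest OC+SM library, against 193.1, 201.9 and 215.3 CPM in YC ovaries. The groups were far apart (log2 fold change 0.48 ± 0.06 SE, a 1.40-fold level, edgeR adjusted p = 1.22e-05). Ndufb4 reached the largest log2 fold change of the 54, 0.49 ± 0.08 SE (edgeR adjusted p = 1.42e-04), at 87.2 to 130.4 CPM in OC+SM and 66.6 to 82.9 CPM in YC ovaries, without overlap. Ndufs8 had 82.5 to 102.9 CPM in OC+SM and 56.6 to 78.6 CPM in YC ovaries, again without overlap (0.46 ± 0.07, adjusted p = 8.27e-05). Cox7b had 155.3 to 192.0 CPM in OC+SM and 87 to 137.0 CPM in YC ovaries (0.48 ± 0.08, adjusted p = 2.43e-04). The count of 54 moved to between 40 and 55 over the alternatives, of which 40 came from libraries thinned to the smallest total with the trend on gene length removed. With thinning alone, which brings the deeper OC+SM libraries to the same depth as all others, it was 50.

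**Figure D3:**
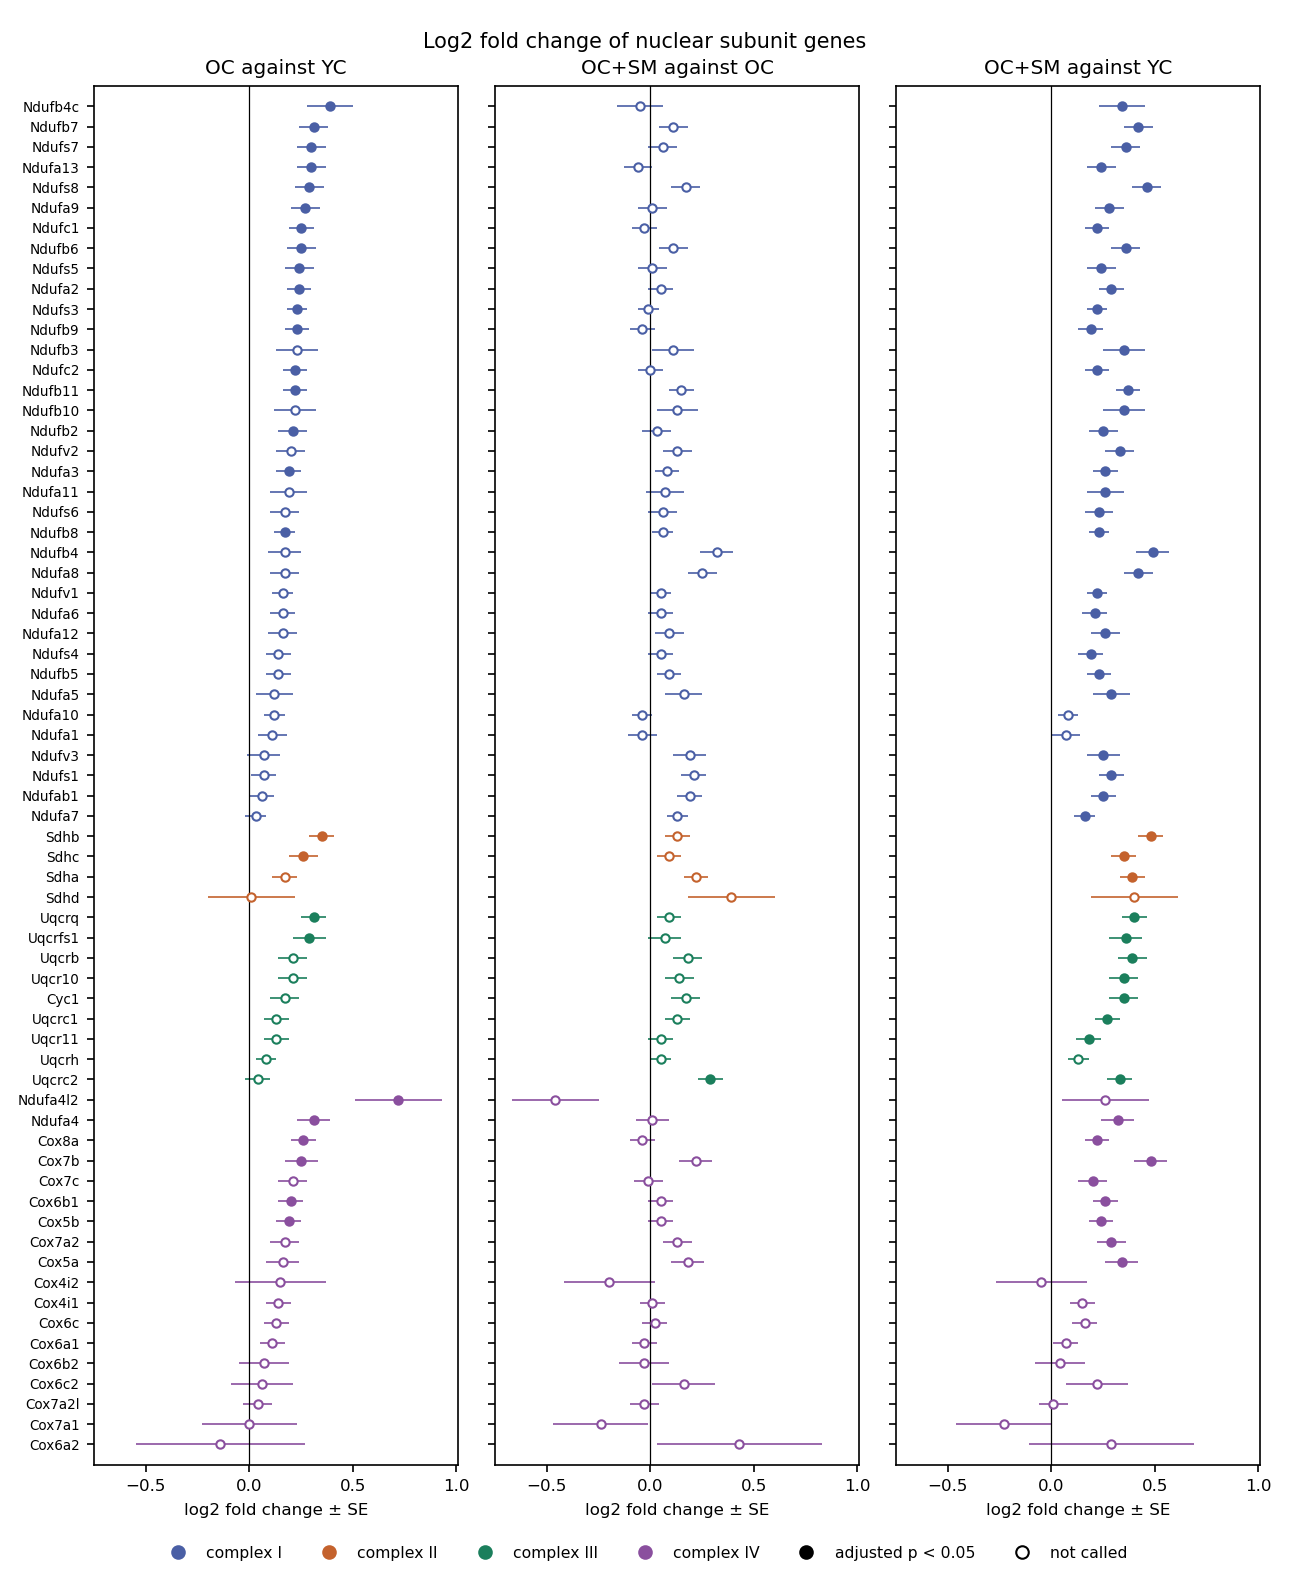
Log2 fold change ± SE of 67 of the 68 genes in the 3 comparisons, ordered within each complex by the OC against YC value (filled points: edgeR adjusted p under 0.05). Of the 67 points in each panel, 27 are filled in OC against YC, 1 (Uqcrc2) in OC+SM against OC and 53 in OC+SM against YC, all to the right of 0.

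The 4 isoform genes given here, known from other tissues, had lower levels than their partner genes in these ovaries. Cox6a2 and Cox7a1, the forms of heart and skeletal muscle, had 4.59 ± 1.68 and 16.1 ± 4.37 TPM in OC ovaries, against 5.15 ± 2.41 and 16.8 ± 6.71 TPM in YC ovaries. Their ubiquitous partners Cox6a1 and Cox7a2 had 883.4 ± 48.9 and 516.5 ± 43.2 TPM in OC ovaries, against 843.8 ± 45.2 and 483.0 ± 14.7 TPM in YC ovaries (SD, n = 6). Cox4i2, an oxygen-responsive form, had 4.92 ± 0.9 TPM in OC and 4.54 ± 1.23 TPM in YC ovaries, against 553.7 ± 22.9 and 520.5 ± 19.6 TPM for Cox4i1 in the same groups. Cox6b2, the form of testis, stood higher at 57.2 ± 6.5 TPM in OC and 57.3 ± 8.45 TPM in YC ovaries. Its partner Cox6b1 had 944.0 ± 53.4 TPM in OC and 841.5 ± 77.9 TPM in YC ovaries. None of these 4 isoform genes passed in any comparison, with log2 fold changes in OC against YC of -0.14 ± 0.41 for Cox6a2, 0.00 ± 0.23 for Cox7a1, 0.15 ± 0.22 for Cox4i2 and 0.07 ± 0.12 for Cox6b2. Cox6a2 rested on 8 to 163 expected counts per library. Striated muscle markers were scarce, with 10 of 13 under 10 expected counts in every library.

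Ndufa4l2, a paralogue of Ndufa4 that is induced by low oxygen, was the isoform gene that passed. It had 5.09, 6.46 and 8 CPM as lowest, median and highest OC library, against 3.18, 3.77 and 5.01 CPM in YC ovaries. The groups just missed each other, and the log2 fold change of 0.72 ± 0.21 SE was the largest of the 68 in OC against YC (edgeR adjusted p = 0.0279). In OC+SM ovaries it had 1.85 to 6.61 CPM with a median of 4.86, overlapping both other groups (-0.46 ± 0.21 against OC, adjusted p = 0.254; 0.26 ± 0.21 against YC, adjusted p = 0.418). These levels rest on 30 to 102 expected counts per library, and the OC against YC call was lost without any one of OC 1, 3 and 4 and YC 1, 2 and 4, with adjusted p up to 0.07.

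The rest of the pathway was described with lists of genes chosen by function. All 18 nuclear ATP synthase genes had positive values in OC against YC and 5 rose, led by Atp5f1c, the rotating central stalk (0.23 ± 0.05, adjusted p = 0.00492), Atp5mj (0.23 ± 0.06, adjusted p = 0.0149) and Atp5me (0.22 ± 0.06, adjusted p = 0.0161). The list's median was 0.19, close to that of complex I. None of the 18 passed in OC+SM against OC, and 13 rose in OC+SM against YC. Of 13 subunit genes of the mitochondrial genome 1 rose in OC against YC, mt-Cytb, the cytochrome b of complex III (0.21 ± 0.07, adjusted p = 0.0481), and the list's median was 0.10. With Samul-tang 1 fell in OC+SM against OC, mt-Nd5, a proton-pumping subunit of complex I (-0.25 ± 0.06, adjusted p = 0.0335), while the list's median was 0.13. In OC+SM against YC 7 rose and 3 fell, with a list median of 0.24. The 3 that fell were mt-Nd2 (-0.37 ± 0.11), mt-Nd5 (-0.23 ± 0.06) and mt-Atp8 (-0.20 ± 0.06), named here after their values had been seen. Nuclear counts per mitochondrial genome subunit count were 0.136 ± 0.00669 in OC+SM, 0.136 ± 0.00441 in OC and 0.13 ± 0.00645 in YC libraries (SD, n = 6).

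Assembly factors and regulators passed with age at shares near those of all genes (5.25% higher and 6.03% lower): 1 of 14, 2 of 28 and 0 of 15 were higher among complex I assembly, other assembly and regulator genes. Of 14 complex I assembly genes, Ndufaf3 rose (0.32 ± 0.10, adjusted p = 0.0333) and Ndufaf4 fell (-0.35 ± 0.09, adjusted p = 0.0125) in OC against YC. Of 28 tested assembly genes for complexes II, III and IV, 2 rose: Cox20, a chaperone for a mitochondrially encoded subunit of complex IV (0.31 ± 0.07, adjusted p = 0.00706), and Cox17, a copper chaperone (0.31 ± 0.10, adjusted p = 0.0469). None of 15 genes for cytochrome c and coenzyme Q passed, nor any of 15 tested regulators of mitochondrial biogenesis. None of these 4 lists had a call in OC+SM against OC. In OC+SM against YC, 11.5% of all genes were called higher and 10.9% lower. There 2 of 14 complex I assembly genes (Ndufaf3 and Ndufaf8, 14.3%) and 2 of 15 cytochrome c and coenzyme Q genes (Coq7 and Coq9, 13.3%) rose, shares near that of all genes. Of the 28 assembly genes of the other complexes 8 rose (28.6%). Cox10, which makes heme for complex IV, fell (-0.30 ± 0.09, adjusted p = 0.0171), and again no regulator passed.

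Markers of several cell types differed between aged and young ovaries. Among luteal and steroidogenic markers, the summed level of 10 such markers was 17150 to 19987 CPM in OC+SM, 16696 to 19231 CPM in OC and 11117 to 15514 CPM in YC ovaries, so that no OC or OC+SM library fell into the YC range. All 10 had positive values in OC against YC and 2 rose: Cyp11a1, which makes pregnenolone in mitochondria (0.45 ± 0.08, adjusted p = 3.65e-04), and Hsd3b1, which makes progesterone (0.37 ± 0.07, adjusted p = 4.46e-04). In OC+SM against YC 3 of the 10 rose and 3 values were negative (median 0.31), and in OC+SM against OC none passed, with 5 positive and 5 negative values (median -0.09). YC 3 had the lowest marker sum, 11117 CPM, as it had the lowest subunit sum. Markers of oocytes went the other way, with 9 of 9 tested genes lower in OC than in YC ovaries and summed levels of 29.3 to 48.6 CPM in OC and 95.9 to 141.4 CPM in YC ovaries. In the same comparison 5 of 9 tested granulosa markers, 5 of 9 smooth muscle and pericyte markers and 4 of 8 theca and interstitial markers fell and none rose. Values were positive, without a call, for 2, 3 and 3 genes of these lists in that order. Of endothelial markers 3 of 8 rose, with summed levels of 339.5 to 385.3 CPM in OC and 285.8 to 328.9 CPM in YC ovaries. Of macrophage markers 3 of 8 rose and 3 had negative values. Their sums overlapped, at 206.0 to 318.3 CPM in OC and 144.7 to 262.0 CPM in YC ovaries. Of T, B and plasma cell markers 3 of 4 tested rose, with sums of 12.2 to 17.4 CPM in OC and 2.49 to 9.76 CPM in YC ovaries. None of the marker lists named here had a call in OC+SM against OC. What part these shifts in cell markers have in the subunit values was not tested.

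**Figure D4:**
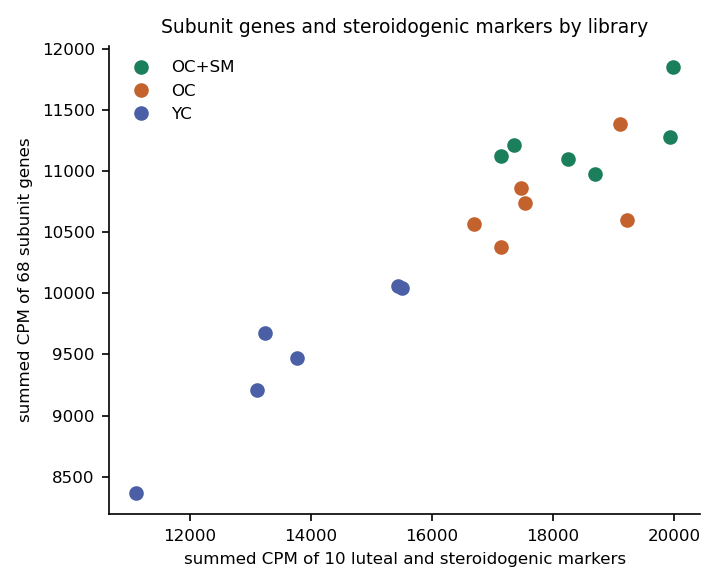
Summed CPM of the 68 subunit genes against summed CPM of 10 luteal and steroidogenic markers, 1 point per library. The 6 YC libraries lie at the lower left, with YC 3 lowest on both axes (8369 and 11117 CPM), and the OC+SM and OC libraries lie at 10374 CPM or more for the subunit genes.

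The subunit genes are short, with a median deposited length of 552 bases against 2207 for all genes tested. In a further fit, the trend on gene length of each library's levels, taken relative to the mean of each gene, was removed. With this step 28 genes were called higher in OC against YC, 1 in OC+SM against OC and 48 in OC+SM against YC. Of the 28, 24 were among the 27 called without that step. Calls over all genes also shifted, to 1184 higher and 884 lower in OC against YC (890 and 1022 without that step) and to 2496 higher and 1379 lower in OC+SM against YC (1954 and 1841). The median log2 fold change of the 68 genes less that of all genes became 0.13 in OC against YC, 0.02 in OC+SM against OC and 0.17 in OC+SM against YC, against 0.17, 0.06 and 0.26 without that step.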

How the data were processed

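QuantSeq libraries, which tag the 3′ end of polyadenylated RNA, were made from 18 ovaries, per the labels' protocols. For each library the authors deposited expected counts and TPM by gene, per the file headers; the TPM values are scaled by the authors to gene length and to 1000000 per library. Tools in the submitters' processing notes are FastQC 1.9, STAR 2.7.9a and RSEM 1.3.3, with the build GRCm39; the sources used here do not give the annotation or strand setting, so antisense, overlapping and near-identical genes may share reads. Symbols were matched by Ensembl identifier to GENCODE M21, of another build (52083 of 55416 identifiers). Of the expected counts of the 68 genes, 50.8% lay within 0.005 of a whole number.

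Expected counts were rounded, filtered with filterByExpr (minimum count 10, minimum total 15; 16959 genes left), scaled by TMM and compared by the quasi-likelihood test of edgeR 4.0.16 (R 4.3.3, robust, two-sided) in 1 fit of 3 group means over 18 libraries, with Benjamini-Hochberg adjustment over all genes. The smallest library held 9.05 times 1000000 counts. The test was also run on counts simulated from the spread that the same fit estimated. Such a run cannot show effects of a batch or of an outlying library. No 2 libraries agreed within sampling noise (chi-square per degree of freedom at least 4.04 over 153 pairs). Replicate numbers did not pair libraries across groups. No p was computed for a sum or list. Promoter windows came from RefSeq (GRCm38).

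The 68 genes, the gene lists and the tests were chosen with earlier results of these data known. Named genes are, per complex and comparison, up to 6 with the smallest p, the core and catalytic subunits, and the tissue isoforms with their partners, of which the text prints a part (1 gene is counted in the totals and is otherwise not reported here); Cox6c, Cox7c, Ndufa7 and Ndufb4c, given as ends of a range, and Ndufs5 were picked after their values were seen. The 32 alternatives changed the scaling, filter, test (DESeq2 1.42.0; limma 3.58.1 on log2 TPM with pseudocounts of 1 and 0.1), depth, length trend, block and libraries. 2 were added after seeing the data: leaving out YC 3 with OC+SM 6, and thinning with the length trend removed.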

Additional observations from a re-analysis of the deposited data

Results flagged for a closer look

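Dixon's test for a sample far from the others of its group of 6 was run on 144 sets of values. The sets covered summed levels and the 42 genes named in any comparison, not all 68 genes. Of the 144, 10 passed the limit, where chance gives about 1 in 20. YC 3 accounted for 6 of the 10. It was far below the other YC libraries for Cox6b1 (218.5 CPM, others 280.3 to 302.7), Cox8a (359.1 CPM, others 440.0 to 477.7) and Ndufa2 (191.2 CPM, others 223.1 to 242.1). The same held for Ndufv2 (89.7 CPM, others 109.4 to 119.4) and Uqcr10 (125.4 CPM, others 162.5 to 179.4). For Cox7a1, the muscle isoform, YC 3 was instead far above the other YC libraries (9.69 CPM, others 3.44 to 5.58). OC 2 was far above the other OC libraries for Ndufa13 (123.8 CPM, others 100.8 to 108.0) and Ndufb11, a membrane arm subunit of complex I (170.0 CPM, others 144.0 to 152.7). OC+SM 2 was far above the other OC+SM libraries for Uqcrq (370.5 CPM, others 313.5 to 332.0) and for the sum over the 68 genes (11851 CPM, others 10971 to 11277). Genes outside the tested sets also had far values in OC+SM 6. Examples, named after their values had been seen, were Ndufa5 (192.5 CPM, others 140.5 to 154.0) and Ndufb10 (79 CPM, others 62.3 to 66.5).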

How the results depend on the processing

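No alternative called any of the 68 genes lower. In OC against YC, the 27 genes called higher became 10 with library totals, 15 and 14 with limma on log2(TPM + 1) and log2(TPM + 0.1), and 17 to 29 when each library was left out, with 17 without OC 2. In OC+SM against OC, the 1 gene became 11 with library totals, 6 with DESeq2, 3 and 3 with the TPM fits, 2 without a filter, 2 with thinned libraries, 0 with only the 12 libraries compared and 5 without YC 3 and OC+SM 6, and 0 to 4 when each library was left out. In OC+SM against YC, 54 became 40 to 55. Replicate numbers gave no pairing (correlations of -0.118 to 0.074); with the replicate block the counts were 25, 1 and 53 in the order above. Of all genes called in OC against YC, 46.5% were higher, against 25.9% with library totals, 33.6% and 34.3% with TPM and 57.3% with the length trend removed. In OC+SM against OC it was 52.8%, against 87.4% with library totals and 63.3% with the length trend removed, and in OC+SM against YC 51.5%, against 64.4% with the length trend removed and 40.4% and 41.2% with TPM. Among named genes, 7 of 16 called in OC against YC lost the call in some alternative, 1 of 1 in OC+SM against OC and 3 of 28 in OC+SM against YC, none with a change of sign; the cause was not tested. Depth limits the isoform genes most: Cox6a2 had as few as 8 expected counts in a library.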
